A study of Homo sapiens with 66 samples.

Results

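A pair of self-renewing human cell states grown from the same line were compared here by bulk RNA sequencing, the pluripotent state of embryonic stem cells (hESC) and the spinal cord neural progenitor state at passage 10 (hSCNPC-P10). The members were chosen by their group labels alone, 3 hESC libraries and 3 hSCNPC-P10 libraries, which are 6 of the 66 libraries of the series. All 6 came from H9, an established human embryonic stem cell line, with the genotype given as WT, and all 6 carry the treatment label of neural differentiation, the undifferentiated cells included. By the study's methods, hESC were grown in mTeSR1 medium on Matrigel. hSCNPCs were derived from them through neuromesodermal progenitors (hNMP) and a neural determination (NeuDet) stage and were then passaged in N2B27 medium with SB431542, an inhibitor of the activin, NODAL and TGF-beta receptors, CHIR99021, a GSK3 inhibitor that activates Wnt signalling, and Purmorphamine, an agonist of the Hedgehog receptor component SMO. Medium and cell state changed together, so their parts in any difference cannot be told apart. No label ties a replicate to a culture of its own, and p-values therefore measure a spread between libraries that may be technical.

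Pluripotent stem cells renew themselves under a network built around POU5F1, NANOG and SOX2, held up in human cells by FGF and by activin or NODAL signals. They form an epithelium with E-cadherin and cytokeratins. Progenitors of the spinal cord also renew themselves, but as neuroepithelium with N-cadherin, SOX1, PAX6 and nestin, and they carry a record of their place in the body. HOX genes mark the level along the head-to-tail axis, and homeodomain and bHLH factors set by Hedgehog from ventral and by BMP and Wnt from dorsal mark the level across it. Notch signalling keeps such progenitors from becoming neurons.

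In the deposited counts, totals ran from 15514546 to 24586308 per library. Levels are given as CPM, counts scaled to a common library total with TMM factors. Differences are log2 fold changes of hSCNPC-P10 over hESC with their standard error (SE) from edgeR's quasi-likelihood F test, so that a negative value is lower in hSCNPC-P10. Genes were called at a Benjamini-Hochberg adjusted p under 0.05. Of 21597 genes tested, 7851 were higher and 8363 lower in hSCNPC-P10, so that 75.1% of all genes were called, and any count below is to be read against that share (36.4% higher and 38.7% lower). The libraries of the groups did not overlap for 76.7% of all genes. The median log2 fold change over all genes tested was -0.01. hESC replicate 1 stood apart from the other hESC libraries, with chi-squared per degree of freedom of 10.3 and 11.4 against them where they gave 2.15 between each other and hSCNPC-P10 pairs gave 2.42 to 3.50. Without it, 8095 genes were higher and 7898 lower. These are bulk samples, in which fewer cells of a type and less RNA per cell cannot be told apart.

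**Figure D1:**
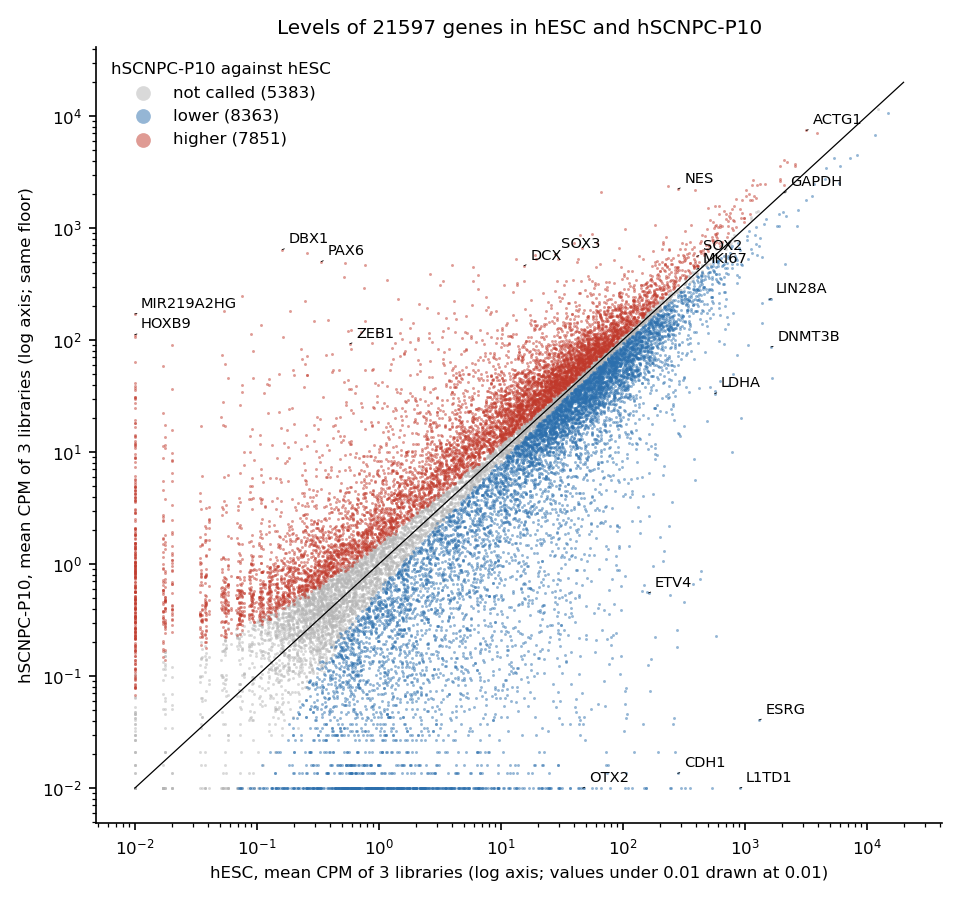
Mean CPM of each of 21597 genes in hESC (x axis) and hSCNPC-P10 (y axis), 3 libraries each, on log axes with values under 0.01 drawn at 0.01. Red genes (7851) were called higher and blue genes (8363) lower in hSCNPC-P10, grey genes (5383) were not called, and the line marks equal levels. MIR219A2HG and HOXB9 lie at the left edge with no count in hESC, L1TD1 and OTX2 at the lower edge with no count in hSCNPC-P10, and SOX2, MKI67 and GAPDH near the line.

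The gene with the largest rise encodes a host transcript of a microRNA, a short RNA that silences mRNAs matched by its seed, bases 2 to 8. The libraries measured the host transcripts and not the mature microRNAs. The mature sequences below are shown because their hosts differed between the states, or, for the miR-17 to miR-92a cluster, because it shares a seed with miR-367 and its host did not differ in the test. They come from RefSeq (GRCh38.p14), were placed in their hosts by coordinates and are written with the seed in capitals.
miR-219a-5p: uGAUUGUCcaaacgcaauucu
miR-219a-2-3p: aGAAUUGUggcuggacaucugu
miR-9-5p: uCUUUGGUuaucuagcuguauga
miR-99a-5p: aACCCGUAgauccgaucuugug
let-7c-5p: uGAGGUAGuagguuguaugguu
miR-302a-3p: uAAGUGCUuccauguuuugguga
miR-302c-3p: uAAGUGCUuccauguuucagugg
miR-302d-3p: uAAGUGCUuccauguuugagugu
miR-367-3p: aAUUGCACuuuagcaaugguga
miR-205-5p: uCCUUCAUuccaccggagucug
miR-17-5p: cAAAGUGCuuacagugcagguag
miR-20a-5p: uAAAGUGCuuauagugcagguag
miR-92a-3p: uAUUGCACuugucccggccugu
The miR-302 members share the seed AAGUGCU, miR-17-5p and miR-20a-5p share AAAGUGC, and miR-367-3p and miR-92a-3p share AUUGCAC.

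MIR219A2HG, whose transcript holds the miR-219a-2 hairpin (mature arm at chr9:128392676-128392696, minus strand), had the largest fold change of all genes higher in hSCNPC-P10. It had 0 counts in each hESC library and 179, 167 and 167 CPM in the hSCNPC-P10 libraries, at least 3145-fold higher against a floor of 3 counts over the group. The other hosts, apart from MIR302CHG, were chosen after their values were seen. The miR-9-5p sequence is encoded by 3 genes whose hosts did not move together. LINC00461, the host of MIR9-2, had 0.904, 0.967 and 0.913 CPM in hESC and 42.3, 43.3 and 38.7 in hSCNPC-P10 (log2 fold change 5.47 with an SE of 0.19, edgeR adjusted p = 1.2e-28). MIR9-3HG was higher too, at 1.005 ± 0.364 against 8.38 ± 0.979 CPM (mean ± SD, n = 3; log2 fold change 3.04), while MIR9-1HG was lower, at 2.84 ± 0.399 against 0.115 ± 0.0156 CPM (log2 fold change -4.57). MIR99AHG, which holds miR-99a and let-7c, a member of the family that LIN28 proteins block, went from 0.123 to 22.4 CPM (log2 fold change 7.40). MIR302CHG, the host of the pluripotency-associated miR-302 and miR-367 cluster, was low in the counts, at 0.744, 0.764 and 0.304 CPM in hESC and 0.0811, 0.0631 and 0.0972 in hSCNPC-P10 (log2 fold change -2.83, edgeR adjusted p = 3.06e-05). Its hairpin genes overlap it fully, and its exons overlap other genes over 71.6% of their length. Reads there could be lost to counting, so the level of MIR302CHG is uncertain. MIR205HG, host of the epithelial miR-205, fell from 13.8 CPM to a single count in hSCNPC-P10, 848-fold (95% counting interval 152 to 33533) lower. MIR17HG, host of the miR-17 to miR-92a cluster that promotes proliferation, had 19.03, 16.2 and 16.1 CPM in hESC and 15.5, 18.2 and 17.1 in hSCNPC-P10, overlapping ranges (log2 fold change -0.02, 95% interval -0.35 to 0.31).

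By the rule for the largest folds, 15 genes higher and 15 lower in hSCNPC-P10 were named. Of those higher, 6 were HOX genes (HOXB9, HOXB8, HOXB6, HOXB7, HOXA2 and HOXB2). The rest were MIR219A2HG, PANTR1, a noncoding RNA next to POU3F3, the zinc finger gene ST18, the bHLH genes HES5 and BHLHE22, the TRIM genes TRIM48 and TRIM67, the imprinted MKRN3 and PGM5. TRIM48, little described, had 0 counts in hESC and 61.7, 69.7 and 61.6 CPM in hSCNPC-P10, at least 1166-fold higher. Of those lower, L1TD1, an RNA-binding protein gene of pluripotent cells, led with 933, 868 and 926 CPM in hESC and 0 counts in hSCNPC-P10, at least 18477-fold lower. The noncoding LINC00458 (357 CPM in hESC), LINC02700 (148), LINC00678 (265) and ESRG (1311) were among them, all at 0 to 3 counts over the hSCNPC-P10 libraries. LINC02700 spread widely within hESC, at 96.8, 180.1 and 167 CPM. The others were the pluripotency genes TDGF1, VRTN and ZFP42, the epithelial genes CDH1, ESRP1, DMKN and SCNN1A, and LCK, HHLA1 and OTX2. In total, 499 genes called lower had 0 counts in hSCNPC-P10 and 242 called higher had 0 counts in hESC.

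**Figure D2:**
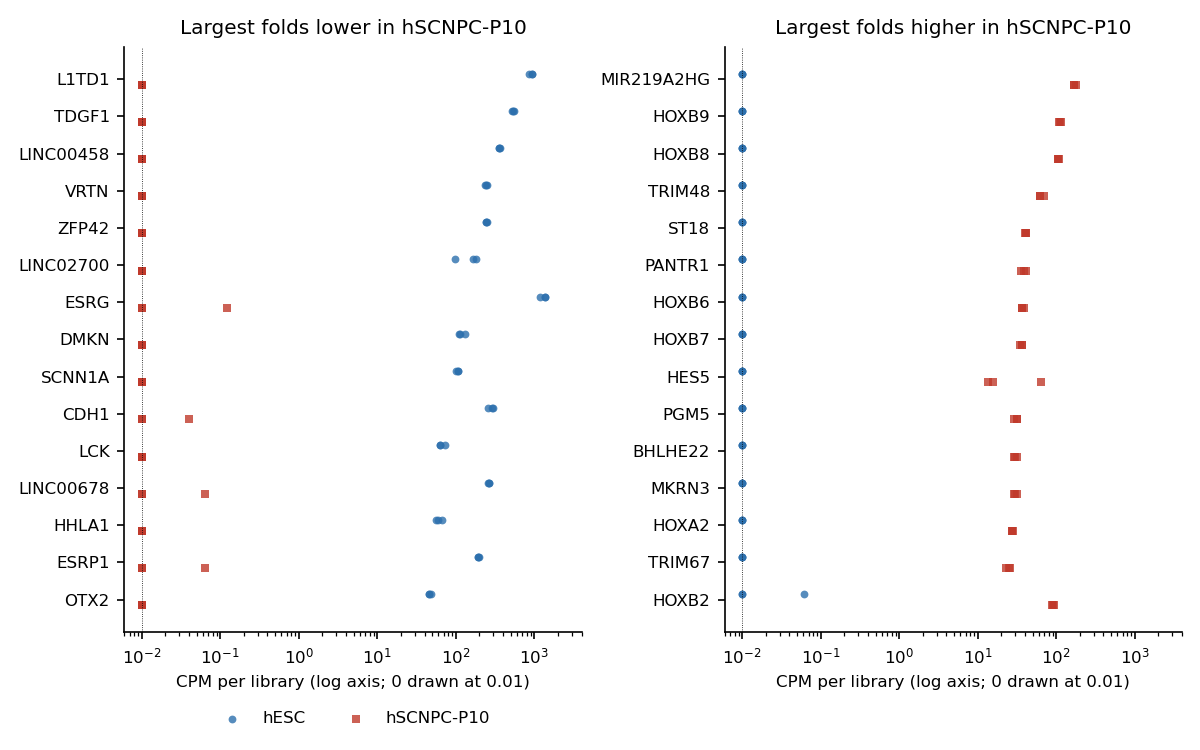
CPM in each of 3 hESC libraries (blue circles) and 3 hSCNPC-P10 libraries (red squares) for the 15 genes with the largest fold lower (left) and higher (right) in hSCNPC-P10, on log axes with 0 drawn at 0.01. In every gene shown the groups lie apart by over 2 orders of magnitude, and among the genes on the right HES5 has the widest spread of hSCNPC-P10 libraries.

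Of 20 genes of the pluripotency network, all tested, 19 were lower and 1 was higher, with a median log2 fold change of -8.59 (-7.91 with the 6 genes at 0 counts set to their bound). NANOG, a homeobox factor of the network, had 106, 105 and 101 CPM in hESC and 0.122, 0 and 0.0972 in hSCNPC-P10 (log2 fold change -10.23 with an SE of 0.29, edgeR adjusted p = 5.62e-32). POU5F1 had 172, 138 and 131 CPM in hESC and 2 counts over the hSCNPC-P10 libraries, 4518-fold (95% counting interval 1250.3 to 37314) lower. For 88% of its 50-base windows the assembly holds a copy on an alternate contig, and POU5F1 and NANOG have near-identical copies elsewhere in the genome, so their levels are uncertain. DPPA4, a chromatin protein of pluripotent cells, kept 19.97 ± 1.90 CPM in hSCNPC-P10 against 936 ± 7.46 in hESC (log2 fold change -5.56). SALL4, a zinc finger factor shared with other progenitors, and GDF3, a TGF-beta family ligand, had the smallest changes among those lower, with log2 fold changes of -1.07 (SE 0.05) and -1.06 (SE 0.20). SOX2, the network factor also used by neural progenitors, was the exception, with 421, 389 and 401 CPM in hESC and 567, 545 and 561 in hSCNPC-P10. Every hSCNPC-P10 library was above every hESC library, yet the difference was small (log2 fold change 0.47 with an SE of 0.07, edgeR adjusted p = 3.31e-08).

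The promoter of NANOG is shown because it holds a well known binding site of the network. The stretch is from RefSeq (GRCh38.p14, chr12:7789152-7789451, plus strand), from 250 bases before the start to 50 after it, with TTTGCAT, 7 letters of the octamer that POU factors bind, in capitals.
NANOG promoter: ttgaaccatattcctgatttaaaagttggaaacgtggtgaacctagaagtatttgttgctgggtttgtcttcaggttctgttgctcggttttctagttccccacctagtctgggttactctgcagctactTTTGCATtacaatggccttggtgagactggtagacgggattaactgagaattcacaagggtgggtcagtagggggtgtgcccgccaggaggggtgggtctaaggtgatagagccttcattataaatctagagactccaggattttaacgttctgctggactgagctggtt
The match begins 120 bases before the start. TTTGCAT or its reverse complement ATGCAAA is in 4.46% of 35116 such promoters and in 3 of the 14 genes of this list that have an entry (DPPA3, NANOG and SOX2). DPPA3 and NANOG were lower in hSCNPC-P10 and SOX2 higher.

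The signals that sustain pluripotency parted in the same comparison. Of 19 tested genes of the NODAL and TGF-beta pathway, 14 were lower and 4 higher (median -1.08). The ligand NODAL had 6.27, 5.40 and 5.35 CPM in hESC and 0.324, 0.505 and 0.437 in hSCNPC-P10 (log2 fold change -3.77), and its co-receptor TDGF1 had 536, 522 and 554 CPM and then 0 counts, at least 10914-fold lower. The feedback targets LEFTY1 (12.4 to 0.0805 CPM), LEFTY2 (7.60 to 0.0621), SKIL (296 to 13.9) and SMAD7 (40.97 to 9.58) were lower, as was FOXH1 (59.7 to 0.210), the DNA-binding partner of SMAD2. The 4 genes that were higher encode receptors and a transducer, ACVR1B (36.1 to 84.6 CPM), ACVR2A (19.3 to 33.1), TGFBR1 (82.6 to 142) and SMAD3 (32.96 to 111). The hSCNPC medium holds an inhibitor of receptors of this pathway. Exons of LEFTY1, FOXH1 and NODAL overlap other genes over 46.6%, 39.2% and 33.5% of their length, and the strand setting of the counting is not given in the sources used here.

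Genes that report ERK activity fell in most cases. Of 16 ERK feedback genes and ETS targets, 13 were lower and 2 higher (median -2.31). ETV4, an ETS factor induced by FGF, had 170.5, 163 and 155 CPM in hESC and 0.608, 0.757 and 0.292 in hSCNPC-P10 (log2 fold change -8.22 with an SE of 0.20, edgeR adjusted p = 1.89e-32). ETV5 went from 96.7 to 0.389 CPM, SPRY4, a feedback inhibitor, from 255 to 3.59, SPRY1 from 30.7 to 0.239 and the ERK phosphatase gene DUSP6 from 89.6 to 1.99. The pair that rose were SPRED2 (0.60 on the log2 scale) and SPRED3 (0.96), and DUSP4 was within 1.5-fold, at 25.7 and 27.8 CPM. Among FGF ligands, FGF2 went from 185 to 24.6 CPM and FGF4 from 4.53 CPM to 0 counts, while FGF9 went from 0.378 to 11.6 and FGF10 from 0.0712 to 3.88. Receptors changed places. FGFR4 (119.8 to 4.19 CPM) and FGFR1 (525 to 287) were lower, FGFR3 was higher at 44.98, 41.999 and 40.3 CPM in hESC and 501, 485 and 493 in hSCNPC-P10 (log2 fold change 3.54), and FGFR2 was within 1.5-fold (155 and 206). By the methods, no FGF is listed in the hSCNPC medium.

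HOX genes were nearly absent from hESC and present in hSCNPC-P10. Of 39 HOX genes, 30 passed the filter on low counts, 28 of these were higher and none lower in edgeR's test, and the median log2 fold change was 10.05 (7.87 with the 22 genes at 0 counts in hESC set to their bound). No tested HOX gene was lower at an unadjusted p under 0.05 or by DESeq2 either. The 22 genes at 0 counts in hESC could not be lower, and the others had few counts there. That none was lower was thus fixed in advance or nearly so. hESC held 13 HOX counts over its 3 libraries, and hSCNPC-P10 a summed 666 ± 13.2 CPM (SD, n = 3). HOXB9, a gene of thoracic level, had 0 counts in hESC and 112, 108 and 115 CPM in hSCNPC-P10, at least 2049-fold higher, and HOXB8, its neighbour, had 110.1, 106 and 104 CPM, at least 1962-fold higher. The HOXB cluster held 78.4% ± 0.263 of all HOX CPM in hSCNPC-P10, HOXA 10.6%, HOXC 7.50% and HOXD 3.49%.

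Per kb of exon, the levels in hSCNPC-P10 were highest for HOXB8 (44.5 CPM per kb) and HOXB9 (43.2), then HOXB2 (36.9), HOXB7 (23.7) and HOXB1 (15.8). The ranges of HOXB8 and HOXB9 overlap. The level was thus not even along the cluster. HOXB3 (7.92 CPM per kb), HOXB4 (11.1) and HOXB5 (10.4) were below HOXB1 and HOXB2 on one side and HOXB7, HOXB8 and HOXB9 on the other. In the other clusters HOXA2 (11.7), HOXD4 (10.2) and HOXC9 (10.1) stood highest, the last pair with overlapping ranges. Paralogue groups 6 to 9 gave 53.8% of HOX CPM, and by the study's labels they run from cervical (HOXC6) to thoracic level (HOXC9). Groups 1 to 5, of hindbrain and cervical level, gave 45.8%, and groups 10 to 13, of lumbar and sacral level, 0.453%. HOXC10 and HOXA10 were the members of the last set called, at 1.74, 1.26 and 1.36 and 1.91, 1.26 and 1.02 CPM. Of its other members 9 did not pass the filter and HOXC13 was not called, though it was without hESC replicate 1 (edgeR adjusted p = 0.029). HOXD1 was not called either, with 1 count over hESC and 0 over hSCNPC-P10.

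**Figure D3:**
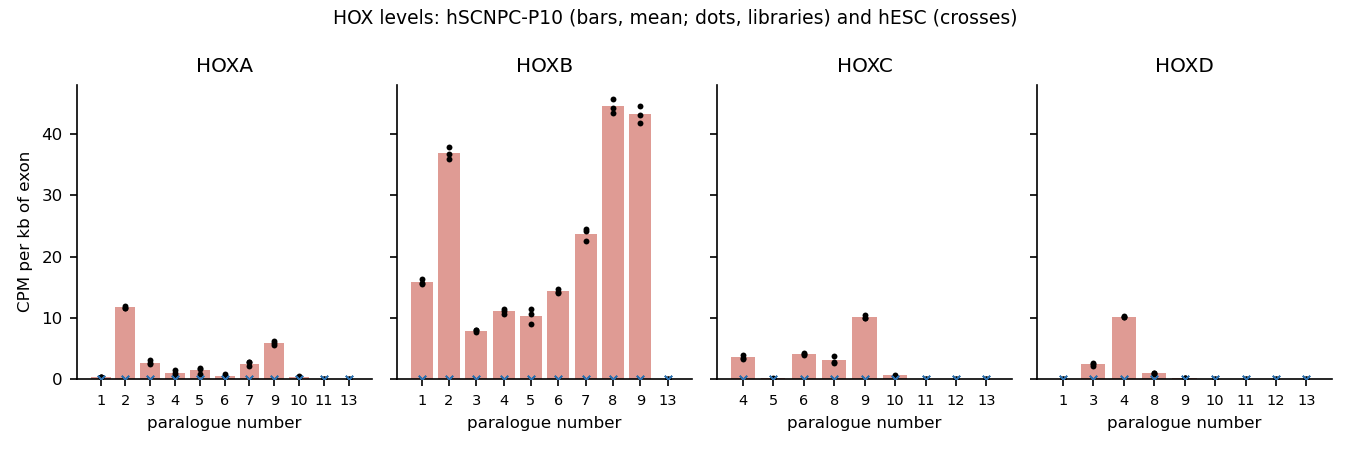
CPM per kb of exon of the HOX genes by cluster and paralogue number. Bars are means and dots the 3 libraries of hSCNPC-P10, and crosses are the 3 hESC libraries, all near 0. HOXB8 and HOXB9 are the tallest, and paralogues 11 to 13 stand at the base line.

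Of 24 genes of the forebrain and midbrain, 16 were tested, 8 of them lower and 7 higher. OTX2, the gene of the rostral brain that primed pluripotent cells also use, had 48.5, 46.1 and 45.9 CPM in hESC and 0 counts in hSCNPC-P10, at least 955-fold lower. EMX1, of the dorsal telencephalon, went from 7.14 to 0.139 CPM. Of the 7 higher, LHX5 (0.594 to 23.8 CPM) and PAX2 (0.296 to 12.6) are also genes of spinal interneurons, and EN1, EN2, PAX5, PAX8 and LMX1B stayed under 2 CPM on average. LMX1B was not called without hESC replicate 1 (edgeR adjusted p = 0.0536) or without hESC replicate 2 (0.0774). In fits with the filter at 1 CPM or on the 6 libraries alone, 3 or 4 of this list were higher and 4 or 5 lower.

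Genes of the pan-neural progenitor state were higher almost throughout, 22 of 23 (median 3.76). PAX6 had 0.319, 0.509 and 0.183 CPM in hESC and 515, 494 and 497 in hSCNPC-P10 (log2 fold change 10.48 with an SE of 0.19, edgeR adjusted p = 1.82e-38), with exons that overlap other genes over 26.3% of their length. SOX1, of the neural plate, had 0.266, 0.102 and 0.122 and 107, 100.3 and 110.4 CPM (log2 fold change 9.29). SOX3, its close relative, was present in hESC already, at 30.8, 27.5 and 25.2 CPM, and reached 596, 555 and 591 (log2 fold change 4.38). NES, the intermediate filament gene of neural progenitors, had 306, 275 and 271 CPM in hESC and 2106, 2179 and 2412 in hSCNPC-P10, and was among the 10 genes with the largest gain in CPM. The nuclear receptor NR2F1 (0.259 to 593 CPM) and the POU factors POU3F2 (0.527 to 491) and POU3F3 (0.0753 to 245) were near absent from hESC. PTPRZ1, a receptor phosphatase of radial glia, was the exception, at 308, 423 and 423 CPM in hESC and 287, 279 and 266 in hSCNPC-P10 (log2 fold change -0.47 with an SE of 0.11, edgeR adjusted p = 0.000214). No library of hSCNPC-P10 reached the lowest of hESC, which was replicate 1.

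Families of transcription factors exchanged members. Of 17 SOX genes tested, 11 were higher and 6 lower. SOX21 (8.33 to 178 CPM), SOX11 (147 to 528) and SOX5 (1.86 to 31.7) rose, and SOX10 (6.03 to 0.262), SOX15 (11.7 to 2.30) and SOX4 (451 to 295) fell. Of 14 tested ZIC, MEIS and PBX family genes, 8 were higher and 5 lower. Among the ZIC genes, ZIC2 (176, 175 and 166 CPM in hESC and 17.7, 16.98 and 18.7 in hSCNPC-P10) and ZIC5 (78.1 to 2.21) fell while ZIC1 (0.259 to 2.16) and ZIC4 (0.0170 to 0.309) rose. The HOX cofactors MEIS1 (0.246 to 61.4 CPM), MEIS2 (0.381 to 149) and PKNOX2 (1.61 to 77.1) rose. Of 12 tested POU genes, 5 were higher and 4 lower. POU2F1 was lower (log2 fold change -0.96) and POU2F2 within 1.5-fold.

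Across the dorsoventral axis, intermediate genes led. Of 17 tested genes of ventral and intermediate spinal progenitors, 12 were higher and 1 lower (median 4.58). DBX1, of the progenitor domain at the middle of the cord, had 0.159, 0.204 and 0.122 CPM in hESC and 663, 603 and 659.9 in hSCNPC-P10 (log2 fold change 11.89 with an SE of 0.19, edgeR adjusted p = 1.35e-43), the highest of these genes per length (517 CPM per kb). DBX2 (0.0937 to 46.2 CPM), IRX3 (2.62 to 389.7) and IRX5 (0.186 to 183) rose with it. Of ventral genes, NKX6-1 had 0.319, 0.204 and 0.183 CPM in hESC and 65.7, 66.96 and 71.8 in hSCNPC-P10 (log2 fold change 8.14), and NKX2-2, of the ventral-most neural progenitors, had 0 counts and 5.03, 3.98 and 4.81 CPM, at least 85.7-fold higher, with exons overlapping another gene over 43.9%. OLIG2, of motor neuron progenitors, had 1.12, 1.27 and 1.34 CPM in hESC and 1.58, 1.64 and 1.65 in hSCNPC-P10, and was not called (log2 fold change 0.39 with an SE of 0.31, edgeR adjusted p = 0.252). SHH (log2 fold change 1.19, 95% interval -0.44 to 2.83) and FOXA2 (0.0170 and 0.0162 CPM), of the floor plate, were not called and were under 0.4 CPM in every library. OLIG1 was lower, at 0.893 and 0.378 CPM, and was not called without hESC replicate 1, without hSCNPC-P10 replicate 1 or 3, or by DESeq2.

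Of 13 tested dorsal genes, 9 were higher and 2 lower (median 3.01). PAX3 had 0.797, 0.865 and 1.22 CPM in hESC and 122, 116 and 115 in hSCNPC-P10 (log2 fold change 6.95 with an SE of 0.12, edgeR adjusted p = 4.18e-45) and PAX7, which reaches to the middle of the cord, 0.106 and 14.3. MSX1 (0.480 to 20.6 CPM), GSX1 (0 counts to 5.41, at least 99.8-fold), GBX2 (2.58 to 46.5) and ID4 (11.2 to 141) were higher. GDF7 fell from 4.07 to 1.40 CPM, LMX1A had 0 counts in all 6 libraries, which allows up to 0.0491 CPM in hSCNPC-P10 by counting error alone, and ATOH1, WNT3A and LMX1A did not pass the filter.

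Hedgehog pathway genes were higher in 12 of 15 tested, with 1 lower (median 1.61). PTCH1, the receptor and a direct target, had 24.2, 32.02 and 31.5 CPM in hESC and 541, 498 and 539 in hSCNPC-P10 (log2 fold change 4.17 with an SE of 0.11, edgeR adjusted p = 3.76e-34). HHIP, a further target, was higher as well (0.511 to 12.9 CPM). GLI1, the target most used as a readout, changed less, from 22.7, 21.6 and 23.8 CPM in hESC to 48.02, 45.1 and 47.7 in hSCNPC-P10 (log2 fold change 1.05, SE 0.10). Genes that Hedgehog signalling is known to repress rose too, the co-receptors BOC (6.46 to 383 CPM) and GAS1 (5.14 to 83.9), whereas CDON, the third co-receptor, fell (log2 fold change -0.70). SCUBE2, which helps to release the ligand, had 0.957, 1.48 and 1.10 CPM and then 352, 337 and 334 (log2 fold change 8.16). The hSCNPC medium holds a SMO agonist, and SHH itself was not called.

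The promoter of PTCH1 is shown because GLI factors bind the letters GACCACCCA, and PTCH1 was the gene of this list with a match among the 11 with an entry. The match (TGGGTGGTC, the reverse complement, in capitals) begins 172 bases before the start (RefSeq, GRCh38.p14, chr9:95509217-95509516, minus strand). The letters are in 0.236% of all promoters of this length.
PTCH1 promoter: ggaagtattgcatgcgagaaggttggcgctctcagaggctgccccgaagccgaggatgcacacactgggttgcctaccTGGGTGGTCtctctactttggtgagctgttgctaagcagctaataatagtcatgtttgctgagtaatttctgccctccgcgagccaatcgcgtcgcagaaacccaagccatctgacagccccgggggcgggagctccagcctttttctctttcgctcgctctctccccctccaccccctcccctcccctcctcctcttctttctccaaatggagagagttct

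Wnt targets and feedback genes were higher in 13 of 21 tested and lower in 7 (median 0.85). AXIN2, the general feedback target, had 25.1, 23.2 and 26.5 CPM in hESC and 73.8, 72.1 and 74.8 in hSCNPC-P10 (log2 fold change 1.56 with an SE of 0.08, edgeR adjusted p = 1.66e-25). LEF1 (0.564 to 36.3 CPM), LGR5, a receptor for R-spondins (0.259 to 48.96), APCDD1 (2.64 to 64.9), NKD1 (15.7 to 191) and TNFRSF19 (0.424 to 53.9) were higher. TCF7L1, the repressor TCF of pluripotent cells (236 to 126 CPM), BAMBI (29.96 to 2.34) and WIF1 (3.89 to 0.106) were lower, and the secreted inhibitors SFRP1 and SFRP2 stayed within 1.5-fold, at 402 and 344, and 499 and 393 CPM. Among receptors FZD10 (1.35 to 94.3 CPM), FZD9 (5.21 to 81.4) and FZD2 (27.7 to 272) rose, FZD5 (139 to 13.1), ROR1 (109.8 to 5.25) and FZD6 (24.4 to 4.92) fell, and FZD7 was within 1.5-fold (491 and 444). WNT7A (0.107 to 136 CPM) and WNT7B (0.462 to 15.5), ligands of the ventricular zone, were the ligands with the largest rise. The hSCNPC medium holds a GSK3 inhibitor.

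BMP and retinoic acid genes were mixed. Of 20 BMP genes, 10 were higher and 8 lower. BMP4 fell from 6.04 to 1.20 CPM and BMPR1A from 163 to 52.2, while BMP7 (37.3 to 110.1), BMPR1B (0.730 to 25.2) and the antagonist CHRD (0.682 to 6.52) rose. The BMP target genes did not move together, with ID3 lower (log2 fold change -1.29) and ID1, ID2 and ID4 higher (0.46, 0.45 and 3.66). Among 17 retinoic acid genes, 10 were higher and 6 lower. The retinoic acid receptor gene RARG fell from 68.1, 60.8 and 64.1 CPM in hESC to 0.446, 0.379 and 0.486 in hSCNPC-P10 (log2 fold change -7.17), while RARA (14.8 to 50.9 CPM) and RARB (0.404 to 3.18) rose. The carriers CRABP1 (46.4 to 658 CPM) and CRABP2 (60.1 to 448) rose, the first with exons overlapping another gene over 45.9%, and ALDH1A3, a synthesis enzyme, fell from 11.996 CPM to a single count.

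Notch pathway genes were higher in 13 of 15 receptors, ligands and modifiers tested and lower in 1 (median 1.35). NOTCH1 had 235, 262 and 247 CPM in hESC and 506, 436 and 495 in hSCNPC-P10 (log2 fold change 0.95 with an SE of 0.12, edgeR adjusted p = 6.58e-09), NOTCH3 256 and 545, and NOTCH2 was within 1.5-fold. The ligand genes DLL3 (44.1 to 204 CPM), JAG1 (74.6 to 282) and DLL4 (0.528 to 6.89) rose, and JAG2 fell (log2 fold change -0.39), a call lost without hESC replicate 1 (edgeR adjusted p = 0.0609). DLL1 and NOTCH4 were not tested, with 0 to 1 counts in all 6 libraries, and 100% and 99.4% of their windows have a copy on an alternate contig.

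The targets parted. HES5, the main Notch effector of neural progenitors, had 0 counts in hESC and 15.8, 64.5 and 13.5 CPM in hSCNPC-P10, at least 506-fold higher. Replicate 2 lay far above the other hSCNPC-P10 libraries, and all of the gene's windows have a copy on an alternate contig, so this level is uncertain. In a fit of the 6 libraries alone HES5 was not called (edgeR adjusted p = 0.0707). Without replicate 2 the fitted log2 fold change, which rests on a prior count because hESC is at 0, was 11.48 in place of 12.54. HES4 had 3.30, 3.21 and 2.98 CPM in hESC and 323, 312 and 299 in hSCNPC-P10 (log2 fold change 6.62 with an SE of 0.17, edgeR adjusted p = 3.36e-29), and NRARP, a feedback inhibitor, went from 55.4 to 339. HES6, a family member counted in this list, went from 52.7 to 349 CPM, and its response to Notch was not tested. HES1, a target that other signals also drive, went down, with 37.96, 30.1 and 28.8 CPM in hESC and 11.7, 13.1 and 14.3 in hSCNPC-P10 (log2 fold change -1.31 with an SE of 0.11, edgeR adjusted p = 2.56e-16), and HEY2 fell from 7.22 to 0.426 CPM. Of the 11 genes on the target list, HES6 included, 7 were higher and 3 lower.

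The promoters of HES5, HES4 and HES1 are shown because they share the letters that the Notch effector RBPJ binds although HES1 moved against the others. They are from RefSeq (GRCh38.p14) at chr1:2530214-2530513, minus strand, at chr1:1000048-1000347, minus strand and at chr3:194135898-194136197, plus strand, with GTGGGAA and its reverse complement TTCCCAC in capitals.
HES5 promoter: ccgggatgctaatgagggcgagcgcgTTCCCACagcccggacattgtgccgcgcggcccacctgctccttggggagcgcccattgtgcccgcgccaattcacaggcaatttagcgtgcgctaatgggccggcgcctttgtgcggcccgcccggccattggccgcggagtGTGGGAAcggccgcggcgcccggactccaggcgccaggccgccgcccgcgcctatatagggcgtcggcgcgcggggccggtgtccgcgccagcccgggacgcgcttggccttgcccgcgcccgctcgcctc
HES4 promoter: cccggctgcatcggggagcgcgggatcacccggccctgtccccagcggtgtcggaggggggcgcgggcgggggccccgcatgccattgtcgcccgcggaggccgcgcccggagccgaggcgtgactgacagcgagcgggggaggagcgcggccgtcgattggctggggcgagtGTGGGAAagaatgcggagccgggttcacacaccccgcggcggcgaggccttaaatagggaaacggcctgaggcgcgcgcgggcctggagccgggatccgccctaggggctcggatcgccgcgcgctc
HES1 promoter: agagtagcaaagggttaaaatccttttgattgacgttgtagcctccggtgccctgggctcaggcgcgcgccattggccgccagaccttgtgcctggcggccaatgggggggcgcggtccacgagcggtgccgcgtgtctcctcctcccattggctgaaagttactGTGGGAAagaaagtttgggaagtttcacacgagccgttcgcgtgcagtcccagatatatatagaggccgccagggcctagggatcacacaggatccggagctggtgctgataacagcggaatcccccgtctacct
GTGGGAA begins 81 bases before the start of HES5, 77 before that of HES4 and 85 before that of HES1, and HES5 holds a further match on the other strand 224 bases before its start. Either form is in 6.25% of all promoters of this length and in 5 of the 10 genes of the Notch target list with an entry. Of these, HES4, HES5 and HEYL were higher and HES1 and HEY2 lower.

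Proneural and early neuronal genes were present in hSCNPC-P10, with 25 of 28 tested higher and 2 lower (median 4.98). NEUROG1 had 3 counts over the hESC libraries and 71.9, 75.2 and 74.8 CPM in hSCNPC-P10, 1349-fold (95% counting interval 461 to 6544) higher. NEUROG2 (36.9 CPM in hSCNPC-P10), NEUROD4 (45.8) and INSM1 (121), all factors that start neuronal differentiation, were higher too. Of genes of young neurons, DCX had 14.3, 15.4 and 16.8 CPM in hESC and 457, 469.9 and 455 in hSCNPC-P10 (log2 fold change 4.90), STMN2 3.72, 2.85 and 3.59 and 342, 353 and 317 (log2 fold change 6.64). ELAVL3 (3.56 to 158 CPM) and MAP2 (5.85 to 208) followed. The pair that fell were RBFOX3, the gene of the neuronal antigen NeuN (28.8, 24.3 and 23.8 CPM in hESC and 6.003, 6.31 and 7.53 in hSCNPC-P10), and NHLH2 (10.9 to 3.05), and GAP43 was within 1.5-fold (55.3 and 63.8). Of motor neuron markers, 9 of 10 tested were higher, among them the neurofilament genes NEFL (33.9 to 336 CPM) and NEFM (21.95 to 261) that other neurons share. The defining MNX1 (1.35 CPM in hSCNPC-P10), ISL1 (0.337, not tested) and CHAT (0.141, not tested) stayed under 2 CPM on average. The part of differentiating cells in these levels was not tested.

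Chromatin genes changed by subunit. Of 27 tested Polycomb genes, which keep developmental genes silent, 14 were higher and 10 lower. The chromodomain genes exchanged. CBX7, the form of pluripotent cells, fell from 13.4, 12.9 and 13.5 CPM in hESC to 0.892, 0.505 and 0.826 in hSCNPC-P10 (log2 fold change -4.11 with an SE of 0.26, edgeR adjusted p = 2.58e-20), while CBX8 (1.17 to 25.6 CPM) rose and CBX2 and CBX6 stayed within 1.5-fold. PHC1 had 893, 1149 and 1117 CPM in hESC and 90.3, 85.3 and 93.2 in hSCNPC-P10, and its paralogue PHC2 moved opposite, from 13.2, 12.01 and 12.6 to 270.4, 258 and 281 CPM (log2 fold changes -3.55 and 4.42). BMI1, a core subunit needed by neural stem cells, rose from 3.79 to 43.5 CPM. Of the other complex, the methyltransferase EZH2 was higher (log2 fold change 1.08), EED, EZH1, RBBP4 and RBBP7 were within 1.5-fold, and the accessory JARID2 (613 to 97.3 CPM), AEBP2 (120.4 to 30.2) and MTF2 (165 to 67.4) were lower. RING1, PCGF2 and EPOP had 0 to 1 counts and copies on alternate contigs over all their windows.

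All 27 tested BAF genes, subunits of an ATP-driven chromatin remodeller, were called, 20 higher and 7 lower (median 0.50), and 6 of them were within 1.5-fold. The ATPase gene SMARCA4 was higher (log2 fold change 0.77) and its alternative SMARCA2 lower (-0.78). Of subunits of the neural form of the complex, DPF3 rose from 0.283 to 3.69 CPM, ACTL6B from 0.804 to 9.19 and SMARCD3 from 6.10 to 51.9. BCL11A (37.4, 37.8 and 35.5 CPM in hESC and 0.406, 0.568 and 0.389 in hSCNPC-P10) and BCL11B (12.6 to 0.271), which that form also holds, fell. Of 11 DNA methylation genes 5 were higher and 5 lower (5 and 6 with RLE scaling). DNMT3B, the de novo methyltransferase of the early embryo, fell from 1544, 1701 and 1674 CPM in hESC to 88.99, 81.4 and 90.1 in hSCNPC-P10 (log2 fold change -4.24 with an SE of 0.09, edgeR adjusted p = 5.21e-42), whereas DNMT3A and DNMT1 were within 1.5-fold. The TET demethylase genes changed order, with TET1 lower (125 to 47.6 CPM) and TET2 higher (4.25, 6.21 and 5.96 in hESC and 50.5, 51.4 and 46.5 in hSCNPC-P10).

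**Figure D4:**
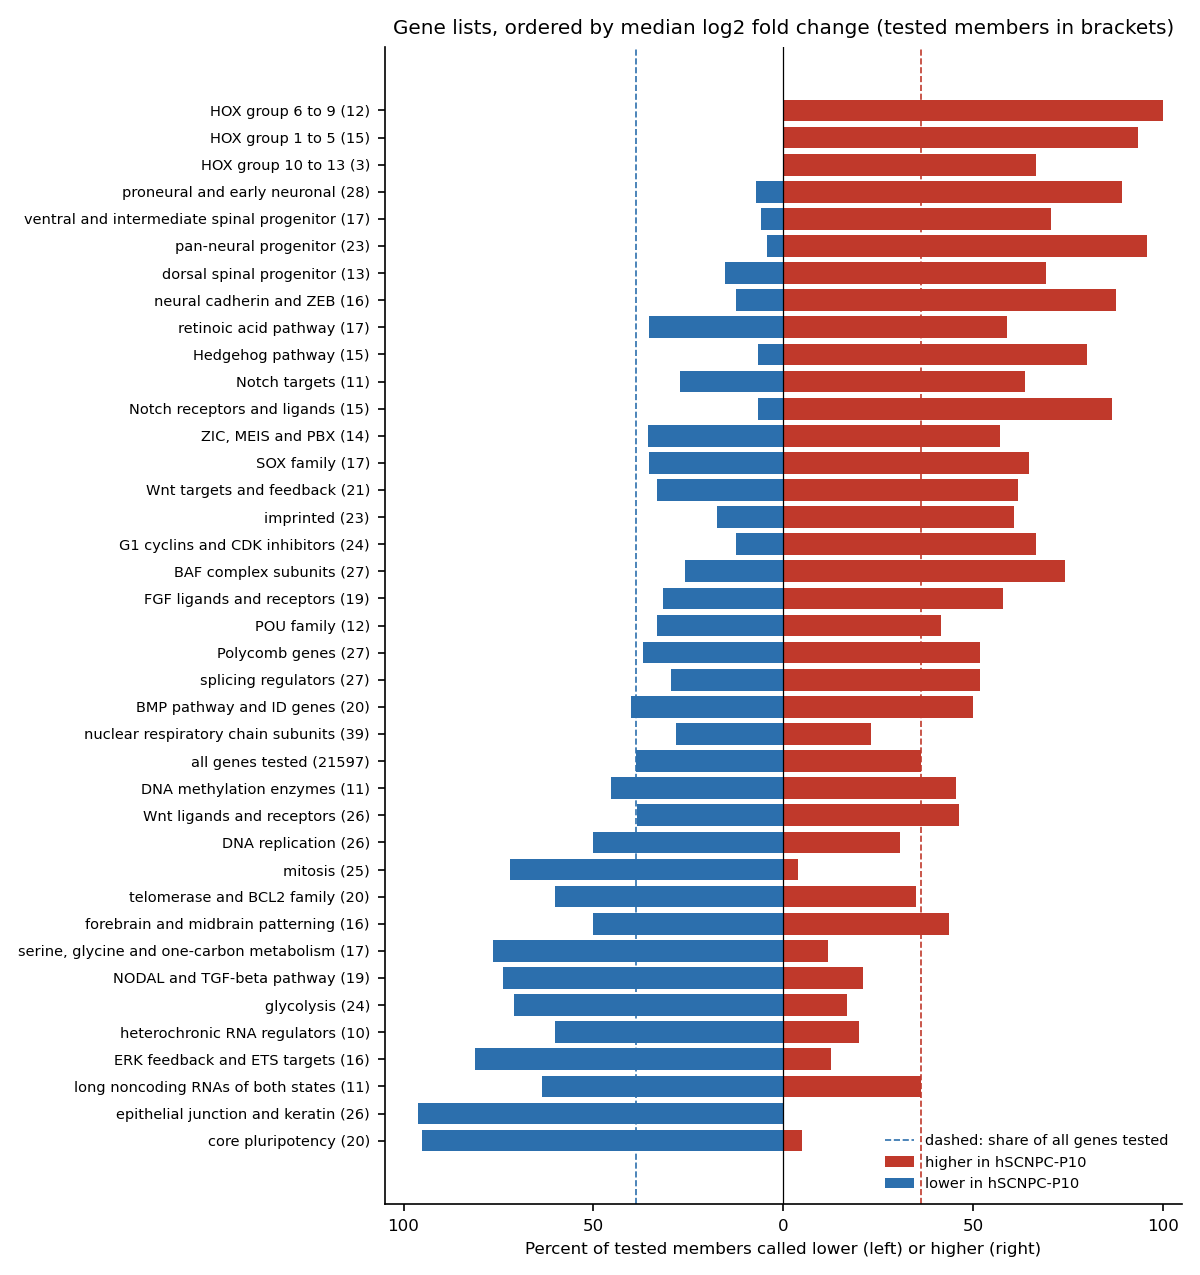
Percent of tested members of each gene list called lower (blue, left) and higher (red, right) in hSCNPC-P10, ordered by the list's median log2 fold change, with tested members in brackets. Dashed lines give the same shares over all 21597 genes, 38.7% lower and 36.4% higher. Epithelial and pluripotency genes stand at the foot with 25 of 26 and 19 of 20 lower, and HOX, neuronal and pan-neural genes at the top.

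Cell cycle genes were counted by phase. MKI67, the proliferation marker, had 305, 455 and 450.02 CPM in hESC and 436, 409.6 and 442 in hSCNPC-P10, overlapping ranges in which hESC replicate 1 was the lowest (log2 fold change 0.09, 95% interval -0.26 to 0.44). Without that library the log2 fold change was -0.02 (edgeR adjusted p = 0.939). Of 25 genes of mitosis, 18 were lower and 1 higher, with a median of -0.49, and 10 were within 1.5-fold. Without hESC replicate 1, or without hSCNPC-P10 replicate 2, 2 were higher. BUB1, of the spindle checkpoint, had 221, 245 and 253 CPM in hESC and 68.1, 68.9 and 68.3 in hSCNPC-P10 (log2 fold change -1.81), while BIRC5, CDC20, AURKB and CENPF were not called. BIRC5 was higher without hESC replicate 1 (edgeR adjusted p = 0.00241) or hSCNPC-P10 replicate 2 (0.0263), with total-count scaling (0.0486) or with the 1 CPM filter (0.0107). NUSAP1, the gene called higher, was at 0.402 and 1.04 CPM with exons overlapping another gene over 86.8%. Of 26 genes of DNA replication, 13 were lower, 8 higher and 13 within 1.5-fold, as PCNA (250.2 and 255 CPM) and RRM2 (117 and 116).

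Genes of G1 leaned the other way, with 16 of 24 higher and 3 lower (5 lower with RLE scaling). CCND1 had 129.99, 147 and 149 CPM in hESC and 295, 279.8 and 294 in hSCNPC-P10 (log2 fold change 1.03 with an SE of 0.07, edgeR adjusted p = 1.28e-19), and CCND2 (201 to 100.4 CPM) and CCNE1 (43.98 to 18.2) fell. Inhibitors of cyclin-dependent kinases were higher throughout the list. CDKN2C had 0 counts in hESC and 11.97, 13.3 and 12.3 CPM in hSCNPC-P10, at least 227-fold higher. CDKN2A, the senescence-associated locus of p16 and ARF, had 0.319, 0.204 and 0.243 and 10.99, 11.04 and 12.005 CPM (log2 fold change 5.45), CDKN1B 48.4 and 117, and CDKN1A 96.6 and 181. TERT, the telomerase reverse transcriptase gene, remained detectable but lower, at 32.5, 29.1 and 27.6 CPM in hESC and 4.50, 4.48 and 5.44 in hSCNPC-P10 (log2 fold change -2.62). Of 20 tested genes of telomerase and the BCL2 family, 7 were higher and 12 lower. PMAIP1, a pro-apoptotic gene, fell from 265 to 19.2 CPM and BCL2, a survival gene, rose from 5.06 to 35.998.

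Epithelial genes fell. Of 26 junction, keratin and related genes, 25 were lower and none higher in edgeR's test (median -7.39), and none was higher at an unadjusted p under 0.05 or by DESeq2 either. CDH1, the gene of E-cadherin, had 257, 292 and 296 CPM in hESC and 1 count over the hSCNPC-P10 libraries, 17177-fold (95% counting interval 3082 to 678492) lower. EPCAM had 163, 153 and 159 and 0.365, 0.757 and 0.583 CPM (log2 fold change -8.18 with an SE of 0.18, edgeR adjusted p = 3.48e-36), and KRT8 (426 to 0.735 CPM), KRT18 (276 to 0.257) and CLDN6 (576 to 0.228) followed. JUP, of plakoglobin, which N-cadherin junctions also use, was within 1.5-fold at 137 and 117 CPM. Its call as lower was lost with the 1 CPM filter (edgeR adjusted p = 0.0774) and without hESC replicate 1 (0.124) or 3 (0.0656). It was also lost without hSCNPC-P10 replicate 2 (0.191). TJP1 was not called (log2 fold change -0.43), with 98.3% of its windows also on an alternate contig, and was lower without hSCNPC-P10 replicate 3 (edgeR adjusted p = 0.0327). Of 16 genes of neural cadherins, ZEB repressors and their kin, 14 were higher and 2 lower. CDH2, the gene of N-cadherin, was higher (90.4, 100.3 and 101 CPM in hESC and 464, 449.5 and 433 in hSCNPC-P10), NCAM1 (13.5 to 309.98) and CDH7 (2.05 to 50.1). The repressors ZEB1 (0.691, 0.560 and 0.487 and 94.4, 95.5 and 87.9 CPM) and ZEB2 (0.590 to 122) rose, while SNAI1, a repressor of the same promoters, fell (log2 fold change -2.41).

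Of 27 tested splicing regulators, 14 were higher and 8 lower. ESRP1, of epithelial exons, had 194, 198 and 194 CPM in hESC and 1 count in hSCNPC-P10, and RBM47 fell from 92.8 to 0.893 CPM. SRRM4, which drives neuronal microexons, rose from 2.55, 3.11 and 3.47 CPM in hESC to 82.1, 81.7 and 86.1 in hSCNPC-P10 (log2 fold change 4.78), and CELF3 (0.873 to 93.5 CPM) and NOVA1 (16.2 to 83.1) rose with it. PTBP1, the repressor of neuronal exons that non-neuronal cells and progenitors share, was within 1.5-fold, at 757, 750.3 and 741 CPM in hESC and 730.01, 672 and 721 in hSCNPC-P10. Its relative PTBP3 fell from 256 to 25.6 CPM. Of RNA regulators of developmental timing, LIN28A was lower yet still high (1635, 1535 and 1578 CPM in hESC and 223, 237 and 232 in hSCNPC-P10; log2 fold change -2.78), TRIM71 fell from 683 to 125, and HMGA2 (229 and 234), IGF2BP1 (621 and 692) and IGF2BP2 (200.3 and 196) were within 1.5-fold.

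Metabolic genes were counted by pathway. Of 24 glycolysis genes, 17 were lower and 4 higher (median -1.11). LDHA, which makes lactate, had 564, 556 and 577 CPM in hESC and 32.1, 33.3 and 34.3 in hSCNPC-P10 (log2 fold change -4.09 with an SE of 0.08, edgeR adjusted p = 4.54e-42). The glucose transporter SLC2A3 went from 774, 808 and 834 to 47.7, 49.5 and 51.7 CPM (log2 fold change -4.02), while SLC2A1, the transporter most cells use, was higher (487 to 983). HK2 (177 to 39.7 CPM), PDK1 (91.8 to 10.99) and the lactate transporter SLC16A1 (714 to 161) fell, and GAPDH (2104 and 2077), PKM and LDHB were within 1.5-fold. Of 39 nuclear genes of the respiratory chain, 27 were within 1.5-fold, 9 were higher and 11 lower (7 and 15 with RLE scaling), with a median of -0.00312. Without hESC replicate 1, 16 were higher and 9 lower. Of 17 genes of serine, glycine and one-carbon metabolism, 13 were lower and 2 higher, led by MTHFD2 (233 to 59.3 CPM) and MTHFD1 (248 to 87.1), with PSAT1 and SHMT2 within 1.5-fold.

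The largest falls in CPM were mostly of mitochondrial genes. Mitochondrial genes took 7.39% ± 0.330 of counts in hESC and 4.61% ± 0.0572 in hSCNPC-P10 (SD, n = 3; exact permutation test, two-sided p = 0.1, the smallest that 3 against 3 allows). By the rule for the largest differences in CPM, 7 of the 10 genes lower were mitochondrial, among them MT-CO1 (15011 to 10594 CPM) and MT-ATP6 (5931 to 2533). The others were CD24 (2153 to 475 CPM), a surface protein of stem cells, HSP90AB1, a chaperone (3559 to 1912), and PODXL, which carries surface antigens of pluripotent cells (1512, 1743 and 1739 in hESC and 47.4, 44.4 and 45.7 in hSCNPC-P10). Of the 10 genes with the largest gain, 5 encode cytosolic ribosomal proteins (RPL13A, RPS2, RPLP0, RPL13) or a translation factor (EEF2, 3911 to 7051 CPM). The cytosolic ribosomal protein genes together took 5.58% ± 0.585 of counts in hESC and 9.55% ± 0.0897 in hSCNPC-P10 (exact permutation test, two-sided p = 0.1), with hESC replicate 1 the highest of hESC at 6.25%. The remaining gains were ACTG1, TUBA1A (235 to 2371 CPM), the tubulin of neurons and their progenitors, NES, CKB, brain creatine kinase (391 to 2202), and IGDCC3, an immunoglobulin family membrane protein (69.7, 65.2 and 62.9 in hESC and 2131, 2039 and 2124 in hSCNPC-P10). Ribosomal protein genes, ACTG1 and HSP90AB1 have near-identical copies in the genome, between which reads could be split.

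Of 23 tested imprinted genes, 14 were higher and 4 lower. MKRN3 had 0 counts in hESC and 29.6, 29.1 and 31.3 CPM in hSCNPC-P10, at least 550.01-fold higher, and PLAGL1, a zinc finger gene, had 1.91, 1.63 and 1.03 and 159, 154 and 151 CPM (log2 fold change 6.64 with an SE of 0.30, edgeR adjusted p = 2.94e-20). MKRN3, NDN (36.999 to 123 CPM) and MAGEL2 (14.9 to 23.99) are neighbours on chromosome 15 and were all higher, while SNRPN of the same domain was lower (36.6 to 11.2). MEG3 (0.0856 to 3.80 CPM) and RTL1 (0.0745 to 2.09), of the chromosome 14 domain, rose from near 0. PEG10, GRB10 and SGCE were within 1.5-fold. The counts do not separate the alleles.

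Markers of other cell types were set beside these results. All 10 markers of undifferentiated hESC were lower, with a summed level of 4552 to 4765 CPM in hESC and 242 to 259.6 in hSCNPC-P10, nearly all of the latter from LIN28A and DPPA4. Of 13 tested mesoderm markers 3 were higher (MESP1, MEOX1 and FOXC1, all under 2 CPM on average) and 6 lower. The summed level was 352 to 416 CPM in hESC, where KDR alone had 329, 395 and 399, and 5.44 to 6.31 in hSCNPC-P10. The defining TBXT had 0 counts in hSCNPC-P10, and so had CDX2 of the caudal epiblast, which was at 0.0719 CPM in hESC, while NKX1-2 went from 33.9 to 0.477 CPM, both picked after their values were seen. Of 8 endoderm markers 1 was higher, CXCR4 (1.06 to 42.6 CPM), which neural progenitors also express, and the defining SOX17 and GATA4 had 0 counts in hSCNPC-P10. The summed endoderm level was 3.35 to 3.71 CPM in hESC and 41.1 to 45.1 in hSCNPC-P10.

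Of 11 neural crest markers 5 were higher and 5 lower. The defining SOX10 (6.03 to 0.262 CPM) and FOXD3 (29.2 CPM to 1 count) fell, and NGFR went from 49.2 to 97.8 CPM. Of 8 glial markers 6 were lower, with GFAP (3.02 to 0.153 CPM) and AQP4 (4.71 to 0.123) near 0 in hSCNPC-P10, and 1 was higher. Of 8 trophoblast and amnion markers 2 were higher, GATA2 (0.564 to 3.51 CPM) and VTCN1 (0.0203 to 1.08), and 4 lower, with KRT7 and GABRP at 0 counts in hSCNPC-P10. Their summed level was 48.01 to 50.2 CPM in hESC and 5.17 to 7.10 in hSCNPC-P10. The summed motor neuron level was 67.5 to 72.04 CPM in hESC and 625 to 663 in hSCNPC-P10. In both states it came mostly from NEFL and NEFM, which other neurons share.

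What the states shared was counted with a test of likeness, the 95% interval of the log2 fold change lying wholly within a 1.5-fold change. Among 8884 genes with at least 10 CPM in both groups, 3534 (39.8%) met it, 3201 lay wholly beyond it and 2149 crossed it. Of those that met it, 2019 were nonetheless called, with small differences. The 3534 genes took 33.3% ± 0.165 of counts in hESC and 33.9% ± 0.148 in hSCNPC-P10, and that these shares are near each other follows from how the genes were chosen. By list, the share of tested members that met it was highest for the respiratory chain (27 of 39), DNA replication (13 of 26) and mitosis (10 of 25). Beside these stand 3534 of all 21597 genes tested, and 39.8% of the 8884 genes with enough CPM to meet it. The lists were not cut to members with enough CPM, so their shares also depend on level. The share was 0 for, among others, core pluripotency, HOX, pan-neural, Hedgehog and dorsoventral genes. Members under 10 CPM on average in either group could not meet it. For HOX genes, which summed to 0.237 CPM in hESC, the 0 was thus fixed in advance. Ventral and intermediate genes summed to 32.2 to 33.4 CPM in hESC, so few of them could meet the test. The 6 pluripotency genes at 0 counts in hSCNPC-P10 could not meet it either.

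The other groups of the same table share the hESC libraries as reference, so their values are set side by side without a further test. POU5F1 went from 147 ± 21.97 CPM in hESC to 44.7 ± 5.58 in hNMP-D4 and 0.0295 ± 0.0267 in NeuDet-D6, and had 0.101 ± 0.130, 0.0372 ± 0.0331 and 0.0523 ± 0.0113 CPM at passages 5, 10 and 40. L1TD1 still had 93.7 ± 12.2 CPM in NeuDet-D6 and 0.306 ± 0.293 at passage 5. PAX6 was at 0.148 ± 0.0617 CPM in NeuDet-D6 and had 466 ± 27.4, 502 ± 11.3 and 261 ± 7.80 at passages 5, 10 and 40. MIR219A2HG, at 9.82 ± 0.586 CPM in NeuDet-D6, held 195 ± 12.98, 171 ± 7.07 and 139 ± 6.67 at those passages.

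Among axial and dorsoventral genes, HOXB9 had 656 ± 16.04 CPM at passage 5, 112 ± 3.52 at passage 10, 3.30 ± 0.249 at passage 20 and 0.392 ± 0.192 at passage 40. The summed HOX level was 1513 ± 10.8 CPM at passage 5, 666 ± 13.2 at passage 10 and 313 ± 4.96 at passage 40. DBX1 stood highest at passage 10, with 315 ± 6.92 CPM at passage 5, 642 ± 33.7 at passage 10 and 21.98 ± 1.62 at passage 20, and CDKN2A did so too (2.05 ± 0.359, 11.3 ± 0.570 and 4.003 ± 0.574). PAX3 had 118 ± 3.83 CPM at passage 10 and 316 ± 5.34 at passage 20. Against hESC, 73.8% of genes were called at passage 5, 76.1% at passage 20, 74% at passage 30 and 76% at passage 40. The log2 fold change over hESC of LDHA was -4.07 at passage 5, -4.09 at passage 10 and -3.38 at passage 40.

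**Figure D5:**
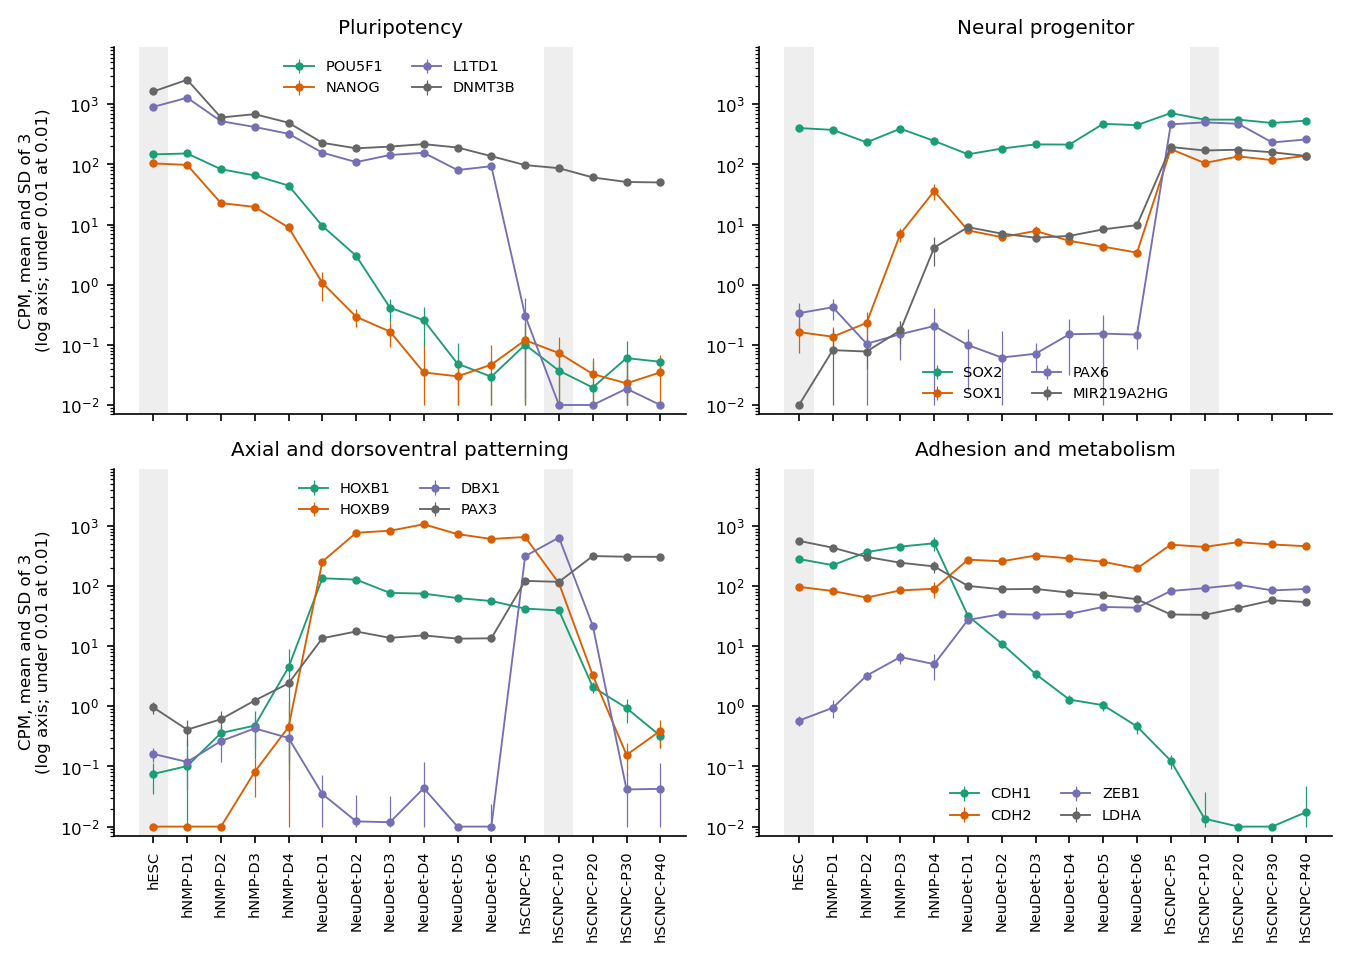
Mean CPM of 16 lead genes in the 16 groups of the table, from hESC through hNMP and NeuDet days to the passages, on log axes with values under 0.01 drawn at 0.01. Points are means and bars SDs of 3 libraries, and the shaded columns are hESC and hSCNPC-P10. HOXB9 and DBX1 are at 112 and 642 CPM at passage 10 and under 1 CPM by passage 40, whereas SOX2, SOX1 and CDH2 stay above 100 CPM from passage 5 to 40.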

How the data were processed

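Bulk RNA-seq libraries of hESC and of hSCNPC at passage 10, 3 of each, were taken from a table of 48 libraries in 16 groups, by their labels. By the study's methods and processing notes, the authors used fastp for trimming, HISAT2 2.1.0 for alignment (hg38) and featureCounts 1.5.3 for the gene counts, and the deposited values are raw counts without normalisation. The strand setting and the annotation release are not given in the sources used here. A second count table with the other libraries of the series was not used here. Gene IDs were matched to GENCODE release 44 (60261 of 60603, 99.44%). The genome of that build includes alternate contigs, on which reads that map equally well to both copies can be lost to counting, and the percent of a gene's 50-base windows with such a copy is given beside the genes it touches (369 tested genes had at least 50%).

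Counts of all 48 libraries were fitted together with edgeR 4.0.16 (R 4.3.3, limma 3.58.1, statmod 1.5.0; filterByExpr, TMM scaling, robust quasi-likelihood F test, Benjamini-Hochberg adjustment), a coefficient per group, so that all groups share the estimate of dispersion, and the contrast hSCNPC-P10 minus hESC was tested. CPM were computed with TMM library sizes, and intervals are 95%. Where a group had 0 counts, the fold is a bound against 3 counts over the group. With 1 to 3 counts it is a ratio with a counting interval, and these cover counting error only. The procedure was tested on simulated data with fewer groups, a fixed dispersion and few changed genes. That test does not cover a contrast in which most genes differ. Tables and figures were made with Python 3.11.15, pandas 2.3.3, numpy 2.4.6, scipy 1.17.1 and matplotlib 3.10.9. Alternatives were RLE and total-count scaling, other filters on low counts, DESeq2 1.42.0, the 6 libraries alone, glmTreat against a 2-fold change, each library left out, and a replicate block.

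The groups, the 45 gene lists and the tests were chosen with earlier results of these data known. Named genes were the 15 of largest fold in each direction among the called with at least 5 CPM in each library of the higher group and no overlap, the 10 of largest difference in CPM, and, of the lists, members with the largest changes or levels, those against the majority or not called, those within 1.5-fold and those the study names. Genes outside these are said to be so.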

Additional observations from a re-analysis of the deposited data

How the results depend on the processing

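Against 7851 genes higher and 8363 lower, RLE scaling gave 7537 and 8681, total-count scaling 8122 and 8106, no filter 8374 and 8579, a filter of 1 CPM 7062 and 6664, DESeq2 7576 and 8917, and the 6 libraries alone 7241 and 7532. Tested against a 2-fold change with glmTreat, 3215 were higher and 4163 lower, fewer because small differences no longer count. Leaving out each library in turn gave 7549 to 8136 higher and 7822 to 8202 lower, 3324 to 3449 genes within 1.5-fold (main 3534) and 629 to 636 list members called (main 641). Same-numbered libraries of the groups did not deviate together (correlations of -0.006, -0.001 and -0.031). No pairing by number was thus seen, which 3 libraries a group cannot settle, and a shared culture or batch was not tested. With the replicate block 7850 were higher, 8357 lower, 3534 within 1.5-fold and 641 list members called. Of 1170 list counts under the alternatives, 26 moved by over 1.5 times. Of 4168 fold changes of 323 named genes, 4113 stayed called or stayed not called, 38 lost the call, 17 gained it and 0 turned direction with a call. Values that turned direction without a call in either fit, as for MKI67, are held in the 4113. The causes of these changes were not tested. At these depths 3 counts over a group correspond to 0.0547 CPM in hESC and 0.0491 in hSCNPC-P10, and differences under that were not detectable.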

Other observations

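Further gene families were grouped by symbol after values were seen, so their counts are descriptions. Of 22 tested genes of ephrins and their Eph receptors, which guide cells and axons by contact, 14 were higher and 8 lower in hSCNPC-P10, with a median log2 fold change of 1.17. Of 52 clustered protocadherin genes, whose random choice gives neurons an identity and whose transcripts share exons, so that reads may be split, 12 were higher and 32 lower (median -1.05). Tubulin genes exchanged members, with 9 of 16 higher and 7 lower. Beside the rise of TUBA1A given above, TUBA1C fell from 286 to 14.9 CPM and TUBA4A from 43.5 to 0.105. Collagen genes fell in 23 of 43 cases and rose in 13, claudin genes fell in 10 of 15 and rose in 3, and potassium channel genes fell in 36 of 77 and rose in 30. Genes of translation factors were higher in 22 of 67 tested and lower in 33.

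By class of gene, 36.8% of 15250 protein-coding genes were higher and 44.5% lower, while 36.9% of 3972 long noncoding RNA genes were higher and 25.9% lower. Over protein-coding genes with at least 5 CPM on average in either group, the median log2 fold change ran from -0.34 on chromosome 18 to 0.23 on chromosome 20. Karyotypes were not analysed here.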
